A study of Caenorhabditis elegans with 4 samples.

Results

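The genes described here are 10 synMuv B chromatin regulators of Caenorhabditis elegans, namely lin-13, lin-15B, lin-36, lin-61, hpl-1, hpl-2, met-2, let-418, mep-1 and tam-1. They were taken by name, and all 10 were found among 46890 annotated genes on the nuclear chromosomes, of which 19971 were protein-coding. Peaks of EFL-1, an E2F-family transcription factor, were mapped by chromatin immunoprecipitation and sequencing (ChIP-seq) with a rabbit polyclonal antibody in hermaphrodites of strain MT10430. All 4 samples carried lin-35(n745) and were whole larvae of the L1 stage, fed on HB101 bacteria and grown at 20 °C, with an unexplained stage tag of 26dC; 2 were EFL-1 ChIP samples and 2 were inputs. The inputs were not analysed here, no sample came from worms with a working lin-35, and a peak from whole larvae cannot be assigned to a tissue. The labels do not say whether the ChIP replicates came from separate cultures, so differences between them may be technical.

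Genes of synMuv class B act redundantly with those of class A to keep epidermal cells from taking vulval fates, and animals that lack both classes form several vulva-like protrusions. LIN-35, the worm retinoblastoma protein, and EFL-1 are themselves products of class B genes, and with DPL-1 they belong to the DRM complex, which represses transcription. The members studied here encode chromatin proteins outside that complex. HPL-1 and HPL-2 are heterochromatin protein 1 homologues, LIN-61 is an MBT-repeat protein that binds methylated H3K9, and MET-2 is a SETDB1-like H3K9 methyltransferase. LET-418 is a Mi-2 remodelling ATPase and MEP-1 is its zinc-finger partner. LIN-13 is a zinc-finger protein that recruits HPL-2, LIN-15B and LIN-36 carry THAP-like domains, and TAM-1 is a RING-finger protein that affects the silencing of repeated transgenes.

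A gene counts as bound here when the centre of a combined-list peak lies within 500 bp of its annotated start. The combined list is the authors' list of 4966 peaks made from both replicates, whose own lists hold 22275 (replicate 1) and 22464 peaks (replicate 2). Peaks are given in WS220 coordinates. The gene table was of assembly WBcel235 and held no strand, so both annotated ends were measured, called lower and upper by coordinate. A gene with no peak at either end is unbound whichever end is its start. A gene with a peak at a single end is bound only if that end is the start. Peaks are ranked by the number in the authors' peak names, and "strong" or "weak" below means low or high in that number. In the replicate lists the score fell with the number, apart from rises of at most 0.000114, below a top score shared by the first 5002 peaks of replicate 1 and the first 3810 of replicate 2. Within those ties, and in the combined list, where all 4966 peaks have the same score, the deposited scores cannot check that the number orders strength. The replicates are numbered as in the sample titles, which differ from the numbers in the names of their deposited lists. Read depth was unknown, since the lists give no read counts.

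Of the 10 genes, lin-36, lin-61 and mep-1 had a combined EFL-1 peak within 500 bp of an end, each at a single end, and the other 7 had none. The number bound at the start is therefore between 0 and 3. For comparison, 19.7% of the 19971 protein-coding genes and 12.1% of all genes had a combined peak within 500 bp of either end. With 10 genes, 3 is close to what the protein-coding share would give. The lower end was reached in 10.6% of protein-coding genes and in 1 member, the upper end in 11.0% and in 2 members, and both ends at once in 1.91% and in 0 members.

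**Figure D1:**
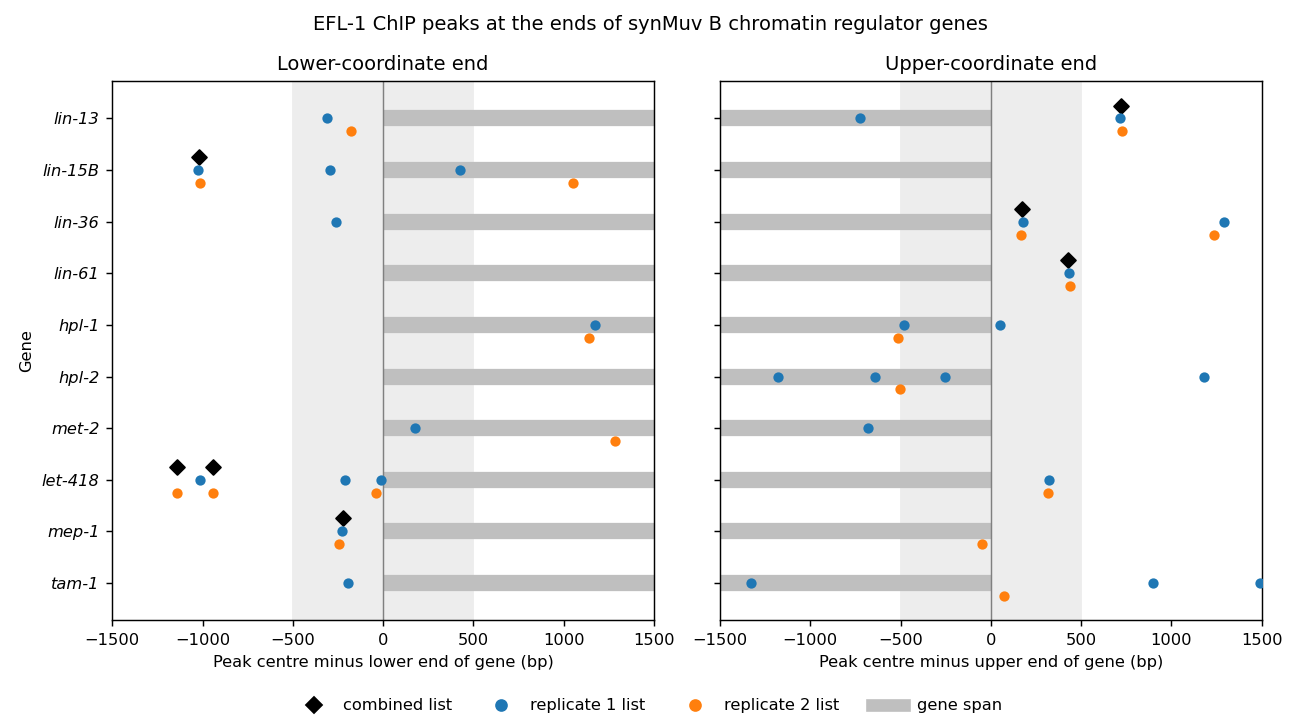
Peak centres (diamonds, combined list; circles, replicate lists) against distance in bp from the lower (left) and upper (right) annotated end of each gene, with 500 bp either side shaded and the gene span as a grey bar drawn to at most 1500 bp. Combined peaks fall in the shaded range at the upper ends of lin-36 and lin-61 and at the lower end of mep-1.

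The THAP-domain gene lin-36 had the nearest combined peak of the group in uncorrected coordinates. With the offset between builds estimated below, lin-36 (221 bp) and mep-1 (218 bp) were about equally near. Combined peak 618, on chromosome III from 8020924 to 8021166, was centred 172 bp beyond the upper end of the gene. It was peak 715 in replicate 1, centred 176 bp beyond that end, and peak 587 in replicate 2, centred 169 bp beyond it, so that its position differed little between replicates. The noncoding RNA gene F44B9.11 has an end 11 bp from this peak centre, nearer than lin-36 itself. The next protein-coding gene on that side, F44B9.2, lay 1418 bp from the peak. At the lower end of lin-36, replicate 1 alone held a weak peak, number 18269, at 261 bp. The protein-coding gene F44B9.5 was nearer to that weak peak, at 151 bp.

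At lin-61, combined peak 489 lay on chromosome I from 7251539 to 7251883, centred 429 bp beyond the upper end. Replicate 1 placed it at 431 bp as peak 579 and replicate 2 at 437 bp as peak 421. The peak sits in the gap of 658 bp between lin-61 and bub-1, which encodes a kinase of the mitotic checkpoint. Its centre was 230 bp from the near end of bub-1, closer than to lin-61. To which of these genes the peak belongs was not tested. No peak of any list lay within 1500 bp of the lower end of lin-61 on its outer side, or inside the gene.

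For mep-1, combined peak 1826 lay on chromosome IV from 11524337 to 11524497, 225 bp outside the lower end. It was peak 2328 in replicate 1 at 226 bp and peak 1309 in replicate 2 at 244 bp. Here too a noncoding gene, M04B2.11, had an end closer to the peak, at 106 bp, while the next protein-coding gene was gfl-1 at 2203 bp. Replicate 2 alone had a weak peak at the other end of mep-1, number 12665, centred 48 bp inside the gene.

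Strong peaks also lay near lin-13 and lin-15B, but beyond the 500 bp limit. The strongest combined peak within 1500 bp of any of the 10 genes was number 233, on chromosome III from 7710031 to 7710395, centred 722 bp beyond the upper end of lin-13. Both replicates held it, as peak 227 at 716 bp and peak 243 at 725 bp, and lin-13 was the nearest gene, the next protein-coding gene, C03B8.3, being 2096 bp away. At lin-15B, combined peak 1067 lay on chromosome X from 15725023 to 15725191, centred 1022 bp outside the lower end. It was peak 1049 in replicate 1 at 1023 bp and peak 1121 in replicate 2 at 1015 bp, and ZK662.5 was next nearest at 1256 bp. The lin-15 locus is known as an operon in which lin-15B precedes lin-15A. Since lin-15A lies 106 bp beyond the upper end of lin-15B, the lower end, which faces this peak, is by that knowledge the start of lin-15B. Closer to it, replicate 1 alone held peak 8088, 294 bp outside the gene, and peak 21566, 424 bp inside it.

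The Mi-2 gene let-418 had a pair of weaker combined peaks that overlap each other, outside its lower end on chromosome V. Peak 3181, from 5825525 to 5825854, was centred 1144 bp away, and peak 4420, from 5825728 to 5826057, was 941 bp away. Replicate 2 resolved them as peaks 2693 and 5993, whereas replicate 1 had a single peak, number 3719, at 1013 bp. The next protein-coding gene on the lower side, ZC250.4, was 13695 bp from let-418. Nearer to the gene, both replicates held peaks that the combined list does not contain. At the lower end these were peaks 6176 (212 bp) and 11645 (11 bp) in replicate 1 and peak 5295 (42 bp) in replicate 2. At the upper end replicate 1 had peak 7290 at 324 bp and replicate 2 had peak 9433 at 318 bp.

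The HP1 genes hpl-1 and hpl-2, the methyltransferase gene met-2 and tam-1 had no combined peak within 1500 bp. Most protein-coding genes had none in such a range either, since 29% had one within 1.475 kb of an end. At hpl-1 the nearest combined peak, number 2733, was 4560 bp beyond the upper end. At met-2 it was number 4686, 4409 bp outside the lower end. For hpl-2 it was one of the strongest peaks of the list, number 4, on chromosome III from 10758931 to 10759391, but 3631 bp beyond the upper end and past the neighbouring gene rnf-113, which lies 93 bp from hpl-2. For tam-1 the nearest combined peak, number 3939, was 69.3 kb away, and 97.5% of protein-coding genes had one as near or nearer.

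Both replicate lists had peaks within 1500 bp of each of these genes, mostly of high number. At hpl-2, replicate 2 held peak 3859, centred 502 bp inside the upper end and thus just past the limit. Replicate 1 had peaks 12222 and 16442 at 253 and 640 bp inside that end. At hpl-1, replicate 1 held peak 9043, 49 bp beyond the upper end, and peak 15370, 482 bp inside it, and replicate 2 held peak 20517, 512 bp inside it. At met-2, replicate 1 held peak 7681, 176 bp inside the lower end, and replicate 2 had only peak 21400, 1284 bp inside. At tam-1 the peaks within 500 bp were at opposite ends, replicate 1 peak 12462 at 194 bp outside the lower end and replicate 2 peak 5478 at 72 bp beyond the upper end. The neighbouring gene str-208 had an end nearer to peak 12462, at 163 bp. On the upper side replicate 1 had peaks farther out, number 15127 at 897 bp and number 8879, its lowest number there, at 1490 bp.

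**Figure D2:**
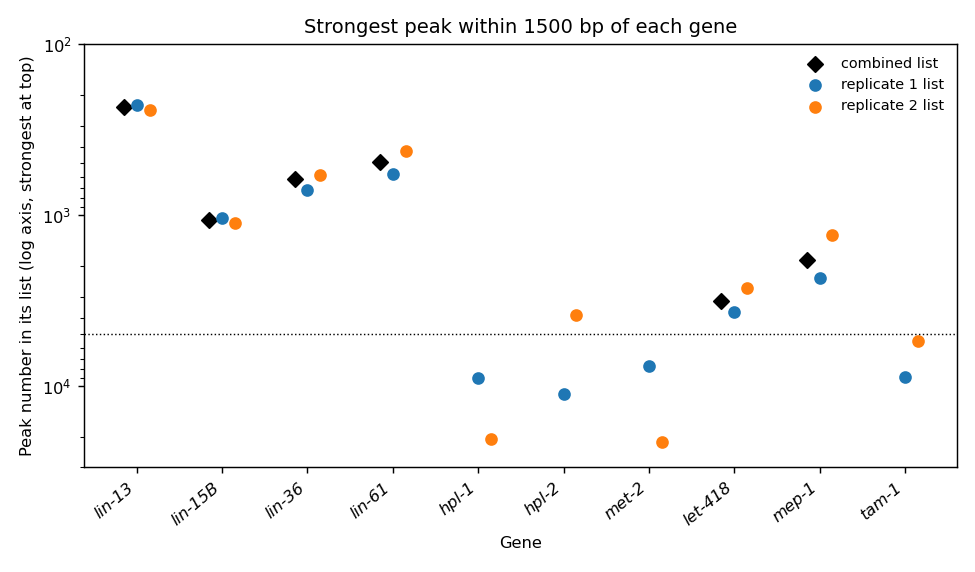
Number of the strongest peak within 1500 bp of each gene in each list, on a log axis with the strongest at the top; the dotted line marks number 4966, the length of the combined list. The 6 genes with a combined peak in this range had replicate numbers from 227 to 3719, and of the other 4 only hpl-2, in replicate 2, had a peak above the line. Of protein-coding genes, 29% had a combined peak within 1.475 kb of an end. The combined list was made from both replicates, so low replicate numbers at its peaks are not a separate result.

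Over the full replicate lists, all 10 genes had a replicate 1 peak within 500 bp of an end, where 44.4% of protein-coding genes had one. In replicate 2, 6 genes had such a peak, where 45.0% of protein-coding genes had one. Both replicates had a peak at the same end in 5 genes (lin-13, lin-36, lin-61, let-418 and mep-1), beside 31.4% of protein-coding genes. The 4 genes lin-15B, hpl-1, hpl-2 and met-2 had one in replicate 1 alone, although the replicate 2 peaks of hpl-1 and hpl-2 missed the limit by 12 and 2 bp. The share of protein-coding genes with one in replicate 1 alone was not counted, so this number cannot be called high or low. Most of these replicate peaks had numbers past 4966, the length of the combined list. Of 23 replicate peaks within 500 bp of a member's end, 17 were not part of a combined site, with numbers from 6176 to 21566 in replicate 1 (12 peaks) and from 5295 to 12665 in replicate 2 (5 peaks). Not all of these were weak for their own list. Their places ran from 23.6% of the way down the replicate 2 list (peak 5295) to 96.8% down the replicate 1 list (peak 21566). The full replicate lists, with 22275 and 22464 peaks, are far longer than the combined list of 4966. Most replicate peaks therefore lie outside combined sites anywhere in the genome, and the exact share was not counted. Restricted to the first 4966 peaks by number, each replicate list reached the same 3 genes as the combined list, beside 19.4% of protein-coding genes in replicate 1 and 19.2% in replicate 2. In replicate 1 that limit falls within the peaks tied at the top score. Since the combined list was made from both replicates, its match with either of them is not an independent check. At lin-13, replicate 1 peak 12692 (310 bp) and replicate 2 peak 5526 (179 bp) overlapped outside the lower end, the end away from the strong peak 233.

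None of the 10 genes had the centre of a combined peak inside its span, beside 5.54% of protein-coding genes. Inside peaks were seen in the replicate lists, in 6 members in replicate 1, beside 32.4% of protein-coding genes, and in 6 members in replicate 2, beside 35.6%. The members are longer than most, with a median length of 4.36 kb against 2.01 kb over protein-coding genes, and the part of length in these counts was not tested. At lin-13, the longest at 9.15 kb, replicate 1 peaks 6340 and 20186 lay inside the gene, 722 bp from the upper end and 2829 bp from the lower end, and replicate 2 held none there.

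Without the offset between builds, distances to the nearest combined peak ran from 172 bp at lin-36 to 69.3 kb at tam-1. Their median was 0.98 kb. Over all protein-coding genes the median was 5.54 kb. No test of this difference was made, and members were spread unevenly over chromosomes of unlike peak density. Chromosome III held 4 members, of which 1 was within 500 bp of a peak, in a background of 29.9% of its protein-coding genes. Chromosomes V and X held 2 members each and none within reach, with backgrounds of 13.4% and 11.6%. The remaining members, lin-61 on chromosome I (28.4%) and mep-1 on chromosome IV (19.6%), both had a peak. Within 25 kb either side, lin-13 had 11 combined peaks and tam-1 had 0, with a median of 4.5 over the members and 2 over protein-coding genes.

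**Figure D3:**
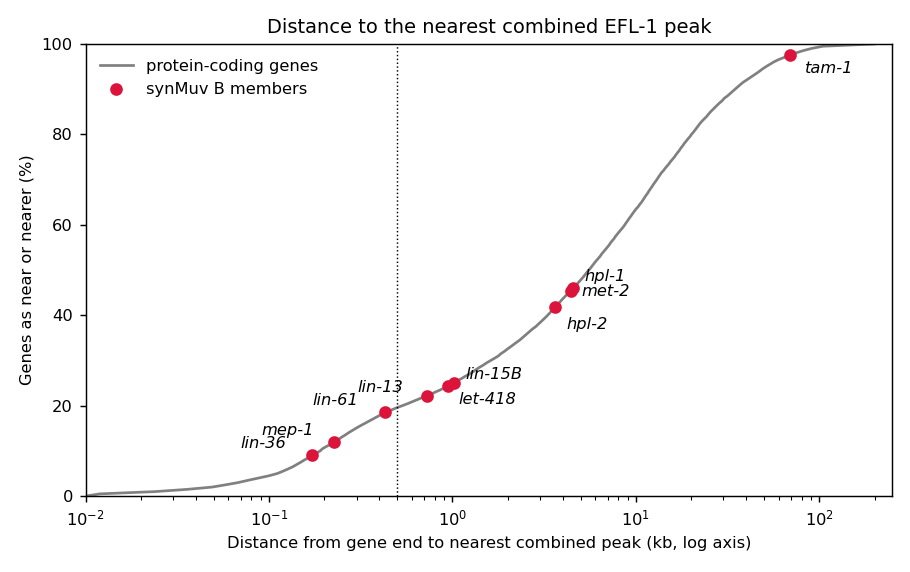
Cumulative percent of 19971 protein-coding genes (line) against the distance in kb, on a log axis, from the nearer gene end to the nearest combined peak, with the 10 members as points and a dotted line at 0.5 kb. Members lie from 172 bp (lin-36) to 69.3 kb (tam-1), with 3 left of the dotted line and 3 more near 1 kb.

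Since gene ends came from WBcel235 and peaks from WS220, the offset between the builds was estimated from the peaks. Peaks lie mostly outside gene ends, so at lower ends they fall at lower coordinates and at upper ends at higher ones, while an offset moves both the same way. The mean of both medians, over peaks within 400 bp of an end, was -5.50 ± 6.32 bp (SE over peak and end pairs) on chromosome I, -29.5 ± 6.96 bp on II and -50.5 ± 6.79 bp on III. It was -13.8 ± 7.60 bp on IV, -11.8 ± 7.77 bp on V and -44.5 ± 9.75 bp on X. With each chromosome cut into 3 equal stretches, it ran from -80.8 ± 18.4 bp in the last stretch of X to 3.50 ± 11.9 bp in the middle of V. These offsets are small beside 500 bp.

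**Figure D4:**
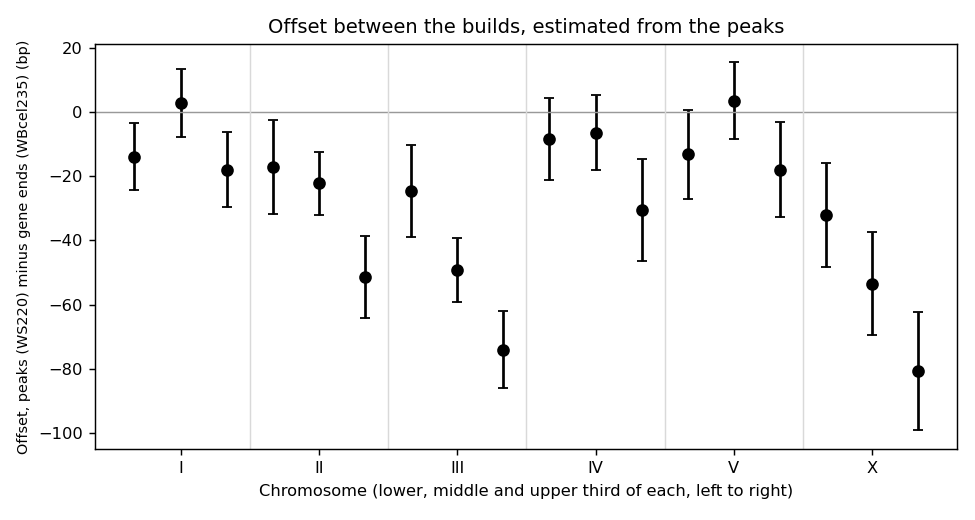
Estimated offset in bp of peaks (WS220) against gene ends (WBcel235) in the lower, middle and upper stretch of each chromosome, with bars of 1 SE over peak and end pairs. Values run from 3.50 bp in the middle of V to -80.8 bp in the last stretch of X, and on II, III and X they become more negative along the chromosome.

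With the offset of each gene's own stretch, lin-36 was 221 bp from its peak, mep-1 218 bp and lin-61 426 bp, and lin-13 was 771 bp away, so no call at 500 bp changed in the combined list. Within 1000 bp of either end and without the offset, lin-13 and let-418 joined, giving 5 of 10 genes beside 24.9% of protein-coding genes. The lin-15B peak moved from 1022 to 941 bp with its offset, and so came within 1000 bp. In replicate 2, the hpl-1 and hpl-2 peaks at 512 and 502 bp came within 500 bp when the offset of their chromosome was applied, which raised the count there from 6 to 8. Without the offset, 45.0% of protein-coding genes had a replicate 2 peak, and the share with it was not counted. With the offset, both replicates had a peak at the same end in 7 genes instead of 5, beside 31.4% of protein-coding genes. The genes lin-15B and met-2 were left with one in replicate 1 alone. As a measure of error in position at combined sites alone, the replicate centres of 4416 such sites with a single peak in each replicate were compared. They differed by a median of 13 bp, and 90% of them by no more than 55.5 bp. Replicate peaks outside the combined list, such as those of hpl-1 and hpl-2, are not covered. At lin-13, 2 such peaks that overlap were centred 310 and 179 bp from the lower end.

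Related genes were counted by the same rule in 8 lists that hold 40 different genes, of which 20 had a combined peak within 500 bp of an end, where 19.7% of protein-coding genes had one. The lists were put together with earlier results of these data known, and no test was made. In the DRM core this held for 6 of 8 genes (lin-35, efl-1, dpl-1, lin-9, lin-53 and lin-54), and not for lin-37 and lin-52. The lowest numbers there were 95 at lin-54, 100 at lin-53 and 164 at efl-1. Among synMuv C genes, which encode a Tip60-like acetyltransferase complex, mys-1 (peak 267), epc-1 (274) and trr-1 (1012) had one and ssl-1 did not. Of the synMuv A genes, lin-38 (peak 679) had one, and lin-8, lin-15A and lin-56 did not. Among genes whose loss suppresses synMuv B phenotypes it was 4 of 5, with isw-1 (peak 84), mrg-1 (555), gfl-1 (3295) and mes-4, and not zfp-1.

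In the lists closest to the members' own functions the count was lower than in the DRM core, a difference that was not tested. Partners of LET-418 and MEP-1 in NuRD-like complexes had a peak in 3 of 6 genes, at lin-53, at dcp-66 (peak 1318) and at the Mi-2 paralogue chd-3 (4834). The other 3, hda-1 (981 bp), lin-40 (935 bp) and egl-27 (667 bp), had 1 between 500 and 1000 bp, as did the members let-418 and lin-13. The same held for cec-4 (810 bp), gon-14 (534 bp) and ssl-1 (644 bp) of other lists. Of protein-coding genes, 19.7% had a combined peak within 500 bp of an end and 24.9% within 1000 bp. Of the genes listed for H3K9 methylation and its readers, arle-14 (peak 4414) and met-1 (1724) had one, and set-25, lin-65, set-32 and cec-4 did not; met-1 is best known as an H3K36 methyltransferase. Relatives with a THAP-like domain had one in 2 of 5, cdc-14 (peak 1072) and him-17 (4082), and gon-14, lin-15A and ctbp-1 had none. The vulval signalling genes lin-3, let-23 and let-60 and the Hox gene lin-39 all had no combined peak within 500 bp, 0 of 4. In the replicate lists, lin-3, let-60 and lin-39 each had a peak of both replicates within 500 bp of the same end. Of protein-coding genes, 31.4% had such a pair, and let-23 had a peak in neither replicate. The gene lin-3, which encodes the EGF-like inducer, is known as a target of synMuv repression.

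**Figure D5:**
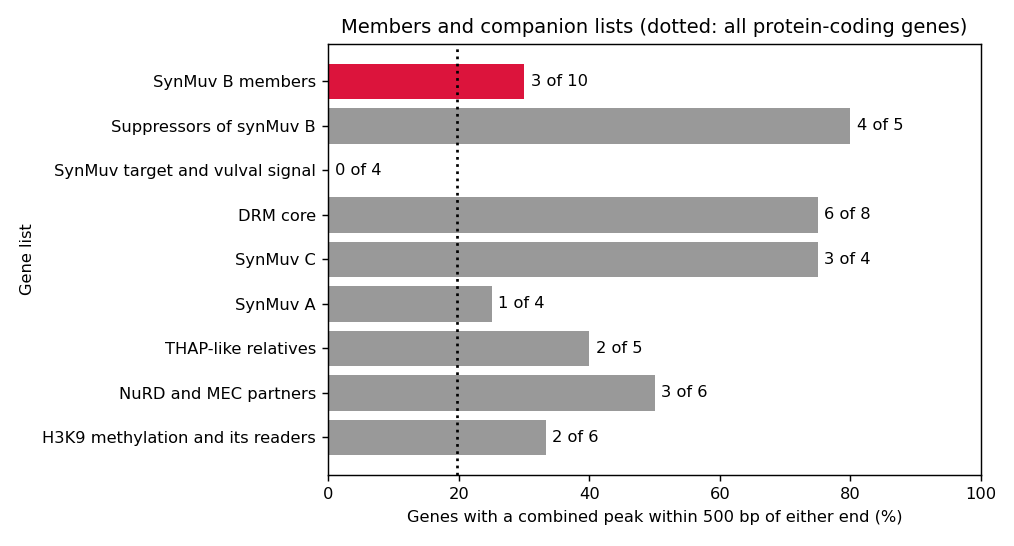
Percent of the genes of each list with a combined peak within 500 bp of either end, with counts beside the bars and the share of all protein-coding genes (19.7%) as a dotted line. The synMuv B members (3 of 10) stand between the synMuv A list (1 of 4) and the list of H3K9 methylation and its readers (2 of 6), and the suppressor list stands highest (4 of 5).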

How the data were processed

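EFL-1 ChIP peak lists of 2 replicates and their combined list were analysed; the inputs were not used. Per the file headers and lines, the deposited lists are in WormBase WS220 coordinates and name SPP and IDR as peak caller and reproducibility filter; their versions and thresholds, and the aligner, are not given in the sources. The score that the authors deposited has no stated unit and was 4.00 in every combined peak, so the number in the peak's name was used as rank, a choice that the tied scores cannot check. Gene ends, names and neighbours came from a RefSeq table of WBcel235 without strand. For that reason "start" was replaced by either end, and no gene coordinate is printed. Distances run from the peak centre to the nearer end. Promoter sequences and motifs, and other transcript starts, were planned and not analysed here. Members and lists were chosen with earlier results of these data known. All members were named, with the nearest other genes and, per list, the 3 lowest peak numbers. No test was made. Python 3.11.15, numpy 2.4.6, pandas 2.3.3 and matplotlib 3.10.9 were used, and counting and offsets were tested on simulated peaks. Alternatives covered reach, overlap, nearest gene, shifts of gene ends, stronger peaks and each replicate alone.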

Additional observations from a re-analysis of the deposited data

How the results depend on the processing

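The 3 genes with a combined peak within 500 bp stayed 3 with any part of the peak counted (21.3% of protein-coding genes) and in the 50% of the list with the lowest numbers (12.1%). They also stayed 3 with gene ends shifted up by 100 bp (19.2%) or by each chromosome's estimated offset (19.6%). The first 4966 peaks of a single replicate gave 3 as well (3 to 3 without either replicate). That setting is not independent of the combined list, which was made from both replicates. The number fell to 1 (lin-36) within 200 bp, beside 10.7% of protein-coding genes, and rose to 5 within 1000 bp, beside 24.9%. Both counts were made without the offset and depend on it. With the offset of its own stretch, lin-36 lay past 200 bp, at 221 bp, and lin-15B came within 1000 bp, at 941 bp. With each peak given only to the nearest end among all genes it was 0 (12.3% of protein-coding genes), because F44B9.11, bub-1 and M04B2.11 were nearer; among protein-coding genes it was 2 (13.9%), without lin-61. Gene ends shifted down by 100 bp also gave 2 (19.5% of protein-coding genes), since lin-61 then lay past 500 bp. Lower ends alone gave 1 and upper ends alone 2. Replicate 1 peaks were within 200 bp of 5 genes instead of 10 (26.2% of protein-coding genes), and of 3 genes within 500 bp when restricted to the first 4966; that restriction took replicate 2 from 6 to 3. The share of genes with a combined peak was 12.1% over all genes and 19.7% over protein-coding genes. The estimated offset, the nearest protein-coding gene and single ends were alternatives chosen after the data were seen. Transcript starts and promoter motifs could not be run. No paired analysis was possible because no result compares ChIP with input samples. Strand decides whether lin-36, lin-61 and mep-1 are bound at the start, and without read depths the absence of a peak does not show absence of EFL-1.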
